A study of Caenorhabditis elegans with 2 samples.

Results

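The proteasome and the vacuolar ATPase are large complexes that most cells build from many separately encoded subunits, and their genes were examined here for binding of UNC-120, an SRF-type factor that acts in muscle, in Caenorhabditis elegans embryos. The genes were all protein-coding genes of the WBcel235 annotation whose symbol begins with pas-, pbs-, rpt-, rpn- or vha-, which gave 53 of 19973 nuclear protein-coding genes. They comprised 14 genes of the proteasome core particle (pas-, pbs-), 19 of its regulatory particle (rpt-, rpn-) and 20 of the vacuolar ATPase (vha-). Membership goes by symbol, and the families were picked with earlier results of these data known.

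The data came from 1 group with 2 biological replicates, so no conditions were compared. Worms of strain OP659, unc-119(tm4063) III; wgIs659, carried UNC-120 with a GFP-FLAG tag on the C-terminal end, and whole embryos of mixed stage and pooled sex were taken 3 h after egg bleaching. Chromatin was sheared with a sonicator and precipitated with an antibody against GFP. The material was the whole organism, so muscle and other tissues were read together, and the protein was a transgenic fusion. No expression was measured, so cell types could not be checked against markers. The deposited lists carried no read counts, so the depth of each library is unknown.

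The proteasome degrades proteins marked with ubiquitin. Its core particle is a barrel of stacked rings of alpha subunits (PAS) and beta subunits (PBS), with the proteolytic sites on beta subunits inside. The regulatory particle caps the barrel: a ring of ATPases (RPT) unfolds the substrate, and the other subunits (RPN) bind, deubiquitinate and hold it. The vacuolar ATPase pumps protons into lysosomes and other compartments, with a soluble V1 part that hydrolyses ATP and a membrane part, V0, that conducts protons.

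A gene was called bound when the summit of a region of the authors' optimal list, thresholded on the irreproducible discovery rate (IDR), fell in a window that began 1000 bp upstream of an annotated 5' end and ended 500 bp downstream of it. Many worm transcripts are trans-spliced, so an annotated 5' end need not be where transcription starts. By this rule 12 of the 53 genes were bound (22.6%), against 9.26% of all nuclear protein-coding genes. The regulatory particle had 5 of 19 genes bound (26.3%), the vacuolar ATPase 5 of 20 (25.0%) and the core particle 2 of 14 (14.3%). These counts are small and describe 1 peak list, and the shares of the complexes were not tested against each other or against all genes. The scores of the strongest summit at each bound member ran from 186.3 to 1336, with a median of 283, and the median over all bound genes was 301. The score is the peak caller's own measure of strength, in units that the sources used here do not state, and ranks count the nuclear regions of a list from the strongest down. The IDR list has 2946 nuclear regions and is the top of a longer list pooled from both replicates, and each replicate has a list and ranks of its own.

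**Figure D1:**
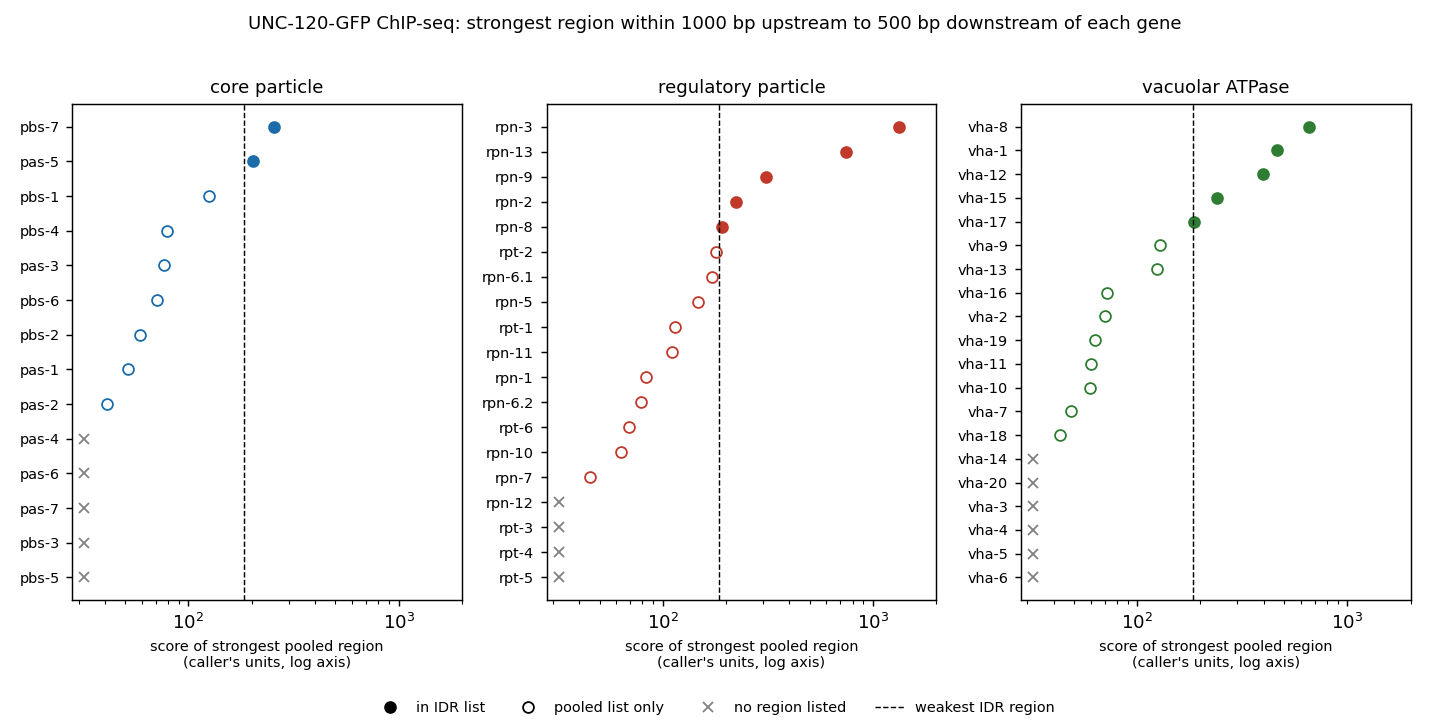
Score of the strongest pooled region in the window of each gene (x axis, peak caller's units, log scale), 1 row per gene and 1 panel per complex. Filled circles are regions of the IDR list, open circles regions of the pooled list alone and crosses genes with no listed region (placed at the left edge, not at a value); the dashed line is the weakest IDR region, at 184.6. The score of rpn-3, at 1336, is the highest. The bound genes nearest to the line are vha-17 at 186.3, rpn-8 at 191.9 and pas-5 at 203.4, with members of each complex among them.

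In the regulatory particle, the 5 bound genes encoded non-ATPase subunits. Of the non-ATPase genes, 5 of 13 were bound (38.5%), and 0 of the 6 ATPase ring genes rpt-1 to rpt-6, against the 9.26% of all genes. With 6 genes a count of 0 lies near that share. Among the 5 bound genes, rpn-3 is lost when a summit goes to the nearest gene alone. The ring gene rpt-2 was bound in the list of replicate 2 alone, and rpt-2 and rpt-6 with the longer window that starts 3000 bp upstream. The strongest region lay 243 bp upstream of rpn-3, which encodes a subunit of the lid, at chrIII:8446923-8447314 (ce11) with its summit at 8447110. Its pooled score was 1336, rank 9 of the whole nuclear list. Its scores were 682.1 in replicate 1 and 657 in replicate 2, and its ranks there were 7 and 12. The second was at rpn-13, which encodes a ubiquitin receptor, at chrIII:6342079-6342368 with a summit 294 bp upstream and a pooled score of 745.9, rank 144. The ranks of the rpn-13 region were 148 in replicate 1 and 145 in replicate 2, so both regions were near the top of each replicate's list taken alone.

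Further regions of the regulatory particle were weaker. At rpn-9, which encodes a lid subunit, the region at chrII:11239071-11239222 had a summit 244 bp upstream and a pooled score of 309.1, with ranks of 1485 in replicate 1 and 1259 in replicate 2. At rpn-2, which encodes a scaffold subunit of the base, the region at chrIII:6198650-6199093 had a summit 312 bp upstream and a pooled score of 223. Its rank was 3209 in replicate 1 and 2034 in replicate 2, so replicate 1 alone placed it below the length of the IDR list.

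The vacuolar ATPase genes bound were spread over both parts of the pump. In V1, vha-8, vha-12 and vha-15 were bound, 3 of 9 genes (33.3%), against 9.26% of all genes, and vha-8 is lost when a summit goes to the nearest gene alone. The gene vha-8 encodes subunit E, part of a stalk that holds the V1 head, and its region at chrIV:6790444-6790765 had a summit 449 bp upstream. This region scored 656 in the pooled list, 327.8 in replicate 1 and 329.3 in replicate 2, with ranks of 213, 204 and 231. The gene vha-12 encodes subunit B of the catalytic head. Its region at chrX:4190566-4190769 had a summit 400 bp upstream, a pooled score of 398 and ranks of 782 in replicate 1 and 879 in replicate 2. The gene vha-15 encodes subunit H, which links V1 to V0, and its region at chrX:2237392-2237835 had a summit 297 bp upstream and a pooled score of 239.2. Its ranks of 1915 in replicate 1 and 2493 in replicate 2 were both within the length of the IDR list.

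In V0, vha-1 and vha-17 were bound, 2 of 9 genes (22.2%), against 9.26% of all genes, and vha-17 too is lost with the nearest gene alone. The proteolipid gene vha-1, which encodes a subunit of the proton-carrying ring, had a region at chrIII:9780718-9780932 with a summit 426 bp upstream. Its pooled score was 465.3, and its ranks were 595 in replicate 1 and 579 in replicate 2. The gene vha-17, which encodes the small subunit e, had the weakest region of all bound members, at chrIV:9321008-9321451 with a summit 571 bp upstream and a pooled score of 186.3. Its rank was 2332 in replicate 1 and 4672 in replicate 2, the widest gap of any bound member. Neither accessory subunit gene, vha-19 nor vha-20, was bound.

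The sequence around 5 summits is shown because these hold the strongest region of the regulatory particle (rpn-3) and of the vacuolar ATPase (vha-8), or a searched sequence (rpn-13, rpn-9 and vha-15). The last 3 were chosen after their values were seen. Each run is 201 bases of the WBcel235 genome on the strand of the named gene, 5' to 3' toward that gene, with the summit at its middle base. Capitals mark matches, on either strand, to the sequences listed after them. The windows are chrIII:8447010-8447210 (plus strand) for rpn-3, chrIII:6342122-6342322 (minus) for rpn-13, chrII:11239063-11239263 (minus) for rpn-9, chrIV:6790525-6790725 (plus) for vha-8 and chrX:2237514-2237714 (plus) for vha-15. No annotated exon overlaps them except, in the rpn-3 window, that of the noncoding gene C30C11.14.
rpn-3: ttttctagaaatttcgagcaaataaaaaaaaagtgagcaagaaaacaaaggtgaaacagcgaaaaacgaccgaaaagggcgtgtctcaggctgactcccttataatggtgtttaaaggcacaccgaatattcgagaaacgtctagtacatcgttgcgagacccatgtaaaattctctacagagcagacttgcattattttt
rpn-13: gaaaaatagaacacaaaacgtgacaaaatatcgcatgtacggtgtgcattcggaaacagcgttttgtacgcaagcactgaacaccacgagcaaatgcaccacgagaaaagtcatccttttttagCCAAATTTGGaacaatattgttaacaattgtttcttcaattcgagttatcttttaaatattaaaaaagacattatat
rpn-9: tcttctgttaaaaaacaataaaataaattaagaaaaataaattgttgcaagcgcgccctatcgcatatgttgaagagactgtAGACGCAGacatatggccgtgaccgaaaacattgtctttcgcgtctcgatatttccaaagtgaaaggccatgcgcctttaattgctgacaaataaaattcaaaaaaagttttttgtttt
vha-8: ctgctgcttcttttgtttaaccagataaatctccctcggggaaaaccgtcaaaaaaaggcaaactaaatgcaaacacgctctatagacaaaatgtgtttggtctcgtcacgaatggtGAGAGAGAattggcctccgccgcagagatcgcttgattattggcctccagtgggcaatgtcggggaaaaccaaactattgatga
vha-15: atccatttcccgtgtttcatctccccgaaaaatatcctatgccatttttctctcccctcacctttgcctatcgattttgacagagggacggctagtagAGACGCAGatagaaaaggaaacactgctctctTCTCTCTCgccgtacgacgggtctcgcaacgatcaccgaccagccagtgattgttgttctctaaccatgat

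The sequences searched within 100 bp of the summit were the GA repeat GAGAGAGA, the E-box CAGCTG, another E-box written CACCTG, the E-box variant CACGTG, the sequence CTGCGTCT, the GATA-type site TGATAA and the CArG box, which is the site of the SRF family. All were looked for on both strands, and no match at a member overlapped a match to another of the sequences. A match is a description of the letters and not a shown binding site. The CArG box was found at 1 of the 12 member summits (8.33%) and at 1.46% of all 2946 nuclear IDR summits. This match, CCAAATTTGG at rpn-13, reads the same on both strands, and its middle lay 28.5 bp from the summit on the side of the gene. CTGCGTCT, which reads AGACGCAG on the other strand, was present at rpn-9, vha-12 and vha-15, 3 of 12 summits (25.0%), against 16.3% of all summits. Its middle lay 1.5 bp from the vha-15 summit, 14.5 bp from that of rpn-9 and 64.5 bp from that of vha-12. With 12 summits, the shares of the CArG box and CTGCGTCT rest on 1 and 3 summits and were not tested.

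GAGAGAGA was present at vha-8 and vha-15, 2 of 12 summits (16.7%), against 16.3% of all summits, so its share at the members was close to that of the whole list. Its middle lay 20.5 bp from the vha-8 summit and 33.5 bp from the vha-15 summit. TGATAA was present at vha-17 alone (8.33%, against 10.6% of all summits). The 3 E-boxes were at 0 of the 12 member summits. Of all summits, 9.40% held CAGCTG, and 6.59% of all summits held CACCTG. The share of all summits with CACGTG was 4.68%. With 12 summits these absences say only that the letters are not in these windows. The GC content of the 12 windows had a median of 39.6% and ran from 30.8% at vha-17 to 49.8% at vha-12, while all 2946 summit windows had a median of 45.8%. The rpn-3 window, with the strongest region, held no exact match to the searched sequences. Near matches, such as ccttataatgg there, were not counted in any window, so how common they are at other summits is unknown. This stretch is longer than the 10 letters of the CArG match at rpn-13.

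The core particle had 2 bound genes, 1 of 7 alpha and 1 of 7 beta subunit genes (14.3% each, against 9.26% of all genes). Among the 1473 strongest regions it had 0 of 14, against 4.86% of all genes. With 14 genes a count of 0 lies near that share. At pbs-7, a beta subunit gene, the region at chrI:8696200-8696643 had its summit 121 bp upstream, the shortest distance of any bound member, with a pooled score of 256.4 and ranks of 2020 in replicate 1 and 1765 in replicate 2. At pas-5, an alpha subunit gene, the summit lay 964 bp upstream, the longest distance, at chrI:10565164-10565607 with a pooled score of 203.4. Its rank was 2094 in replicate 1 and 3174 in replicate 2. The pas-5 summit was within 200 bp of the 5' end of a small nucleolar RNA gene, F25H2.15. A stronger summit with a score of 544.8, 1175 bp upstream of pas-5 and outside the window, was also within 200 bp of that gene. Whether these regions belong to pas-5 or to F25H2.15 cannot be told apart here. In the regulatory particle, rpn-8, which encodes a lid partner of the deubiquitinase RPN-11, was the weakest bound gene, with a summit 228 bp upstream at chrI:4174869-4175312 and a pooled score of 191.9. Its rank was 2672 in replicate 1 and 3587 in replicate 2. A second summit in an intron of rpn-8, 677 bp downstream with a score of 260, lay outside the window and within 200 bp of the small nucleolar RNA gene R12E2.17.

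**Figure D2:**
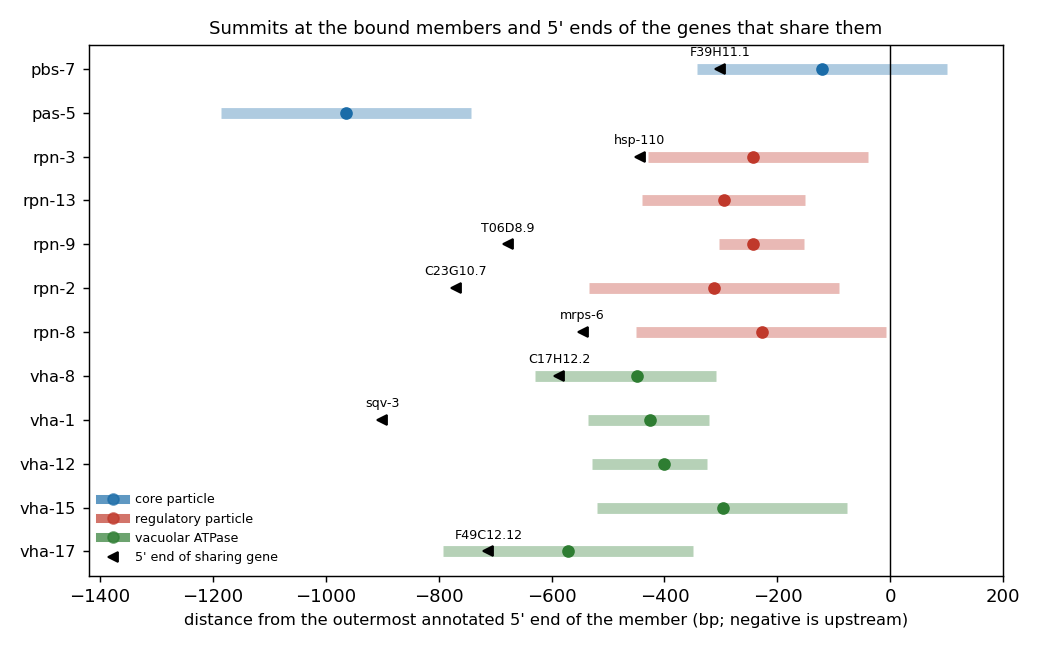
Position of the summit (dot) and region (bar) at each of the 12 bound members (rows), as distance in bp from the member's outermost 5' end, with negative values upstream. Triangles mark the 5' end of the other gene that shares the summit. All 12 summits lie upstream, from 121 bp at pbs-7 to 964 bp at pas-5, and 8 of the rows carry a triangle.

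All 12 strongest summits lay upstream of the member's 5' end, against 90.7% of the strongest summits of all bound genes. The median distance was 304.5 bp for the members and 270 bp for all bound genes. All 12 lay in intergenic sequence.

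Promoters shared with another gene were common, and a summit there cannot be given to 1 gene. Of the 12 bound members, 8 shared their summit with 1 other protein-coding gene, in each case on the opposite strand. Of all bound genes, 42.7% shared a summit in their window with at least 1 other protein-coding gene, on either strand. The summit of rpn-3 was nearer to hsp-110, the gene of an HSP110-type chaperone, at 201 bp than to rpn-3 at 243 bp. The noncoding gene C30C11.14 also has a 5' end within 200 bp of this summit. The summits of vha-8 and vha-17 were also nearer to the neighbour: C17H12.2 at 137 bp, against 449 bp to vha-8, and F49C12.12 at 141 bp, against 571 bp to vha-17. For the other 5 the member was nearer. These were vha-1, which shares with the glycosyltransferase gene sqv-3 at 474 bp, rpn-9 with T06D8.9 at 434 bp, pbs-7 with F39H11.1 at 181 bp, rpn-2 with C23G10.7 at 458 bp and rpn-8 with the mitochondrial ribosomal protein gene mrps-6 at 317 bp. The summits of rpn-13, vha-12, vha-15 and pas-5 were shared with no other protein-coding gene. No summit was shared by 2 members.

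Divergent neighbours were frequent in the whole list of members. A protein-coding gene on the opposite strand had its 5' end within 1000 bp upstream for 28 of 53 members (52.8%), against 18.7% of all protein-coding genes. The share was 68.4% in the regulatory particle, 64.3% in the core particle and 6 of 20 genes in the vacuolar ATPase. Of the 28 members with such a neighbour 8 were bound (28.6%), where 17.5% of all genes with one were bound. Of the 25 members without one 4 were bound, against 7.37% of all genes without one. The share bound was higher with a divergent neighbour over all members and over all genes, but not in the core particle, where 1 of 9 genes with one (11.1%) and 1 of 5 without one were bound. The part of promoter layout in the count of bound members was not tested.

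Some members lie behind another gene on the same strand, with which they could be transcribed as an operon; the annotation used here does not record operons. With gaps of at most 500 bp, 13 of 53 members (24.5%) had such a neighbour upstream, against 4001 of all 19973 genes. Of these 13 members 1 was bound, against 202 of the 4001 genes, and with 13 members that count lies near that share. The bound member was rpn-13, which lies 462 bp behind C56G2.9, a gene that was not bound. The proteolipid genes vha-1 and vha-2 are such a pair, with a gap of 400 bp. The summit that made vha-1 bound lay 1336 bp upstream of vha-2, beyond its window. The strongest region in the window of vha-2 itself had a score of 70.11 and rank 12949 in the pooled list. When a summit at the first gene of a run also counted for the later genes, a rule added after seeing the data, rpn-10, vha-2, vha-10 and vha-20 joined the bound members. The first genes of their runs were mrpl-9, vha-1, xrep-4 and sym-4. The count was then 16 of 53 (30.2%), against 12.1% of all genes.

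Members that were not bound were looked up in the list pooled from both replicates, which holds 29995 nuclear regions and runs far below the IDR threshold. Of the 41 unbound members, 26 had only such a weaker region in the window, 49.1% of the 53 against 31.1% of all genes, and 15 had none. Counting regions of any strength, 38 members (71.7%) had one, against 40.3% of all genes. The weaker regions of the members had a median score of 71.5, and those of all genes 71.7. Presence in this list is not a call of binding by the authors.

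The weaker regions of members nearest to the threshold were those of rpt-2 with a score of 179.7 and rank 3055 and rpn-6.1 with 171.9 and rank 3230, just outside the list, whose weakest region scored 184.6. Just inside it were vha-17 with 186.3, rpn-8 with 191.9 and pas-5 with 203.4. The ATPase gene rpt-2 had ranks of 7463 in replicate 1 and 2769 in replicate 2. The lid gene rpn-6.1 had ranks of 1872 in replicate 1 and 7312 in replicate 2, so each passed the length of the IDR list in 1 replicate only. After them came rpn-5 with a score of 147.3, vha-9 with 129.2, pbs-1 with 125.7, vha-13 with 124.8, rpt-1 with 114.7 and the deubiquitinase gene rpn-11 with 110.2. The remaining 18 weaker regions scored from 41.04 at pas-2 to 83.37 at rpn-1.

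The pooled list had no region in the window for 15 of the 53 members, and for 11918 of all 19973 genes. The 15 members included 3 of the 6 ATPase ring genes, rpt-3, rpt-4 and rpt-5. With 6 genes a count of 3 lies near the share of all genes. The 15 also included pbs-5, the gene of a catalytic beta subunit, and vha-14, which encodes the subunit D shaft of the pump. Of the 15, 7 had no region in the window in any list, 6 had one in the list of 1 replicate, and pas-7 and vha-3 had one in the list of each replicate. At pas-7 the list of replicate 1 had a region of rank 2532, 231 bp upstream, and that of replicate 2 had a region of rank 4932, with no pooled summit within 200 bp. At rpn-12 replicate 2 had a region of rank 1785, 133 bp upstream, and replicate 1 and the pooled list had none in the window. At rpn-7, whose pooled region scored 44.82, replicate 1 had a region of rank 1743, 387 bp upstream, with no pooled summit within 200 bp. Such regions were rare: of the 2946 top regions, 30 in replicate 1 (1.02%) and 46 in replicate 2 (1.56%) had no pooled summit within 200 bp.

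Genes that encode versions of the same subunit, or related subunits, differed in their regions. Among the genes of subunit H, vha-15 was bound with a score of 239.2, while vha-18 had a weaker region with a score of 42.94, rank 27633. Of the proteolipid genes, vha-1 scored 465.3 and vha-2 70.11, and vha-3 and vha-4 had no pooled region in the window. The replicates' own lists give another order: vha-3 scored 54.59 in replicate 1 and 71.27 in replicate 2, both above vha-2, which scored 31.46 in replicate 1 and 37.11 in replicate 2. The subunit a genes vha-5 and vha-6, known from the epidermis and excretory cell and from the intestine, had no pooled region either, and vha-7 had one with a score of 48.34. The further subunit a gene unc-32, best known from neurons, was not bound and had a region with a score of 111.9, rank 5727. Of the lid genes rpn-6.1 and rpn-6.2, the first had a score of 171.9 and the second 78.7. None of these differences between genes was tested.

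Bound members lay on all nuclear chromosomes except V, with 4 of 11 members bound on III, 3 of 12 on I, 2 of 3 on X, 2 of 10 on IV, 1 of 10 on II and 0 of 7 on V. Of all protein-coding genes, 13.1% were bound on III, 12.9% on I, 11.6% on X, 8.44% on II, 8.32% on IV and 4.97% on V.

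**Figure D3:**
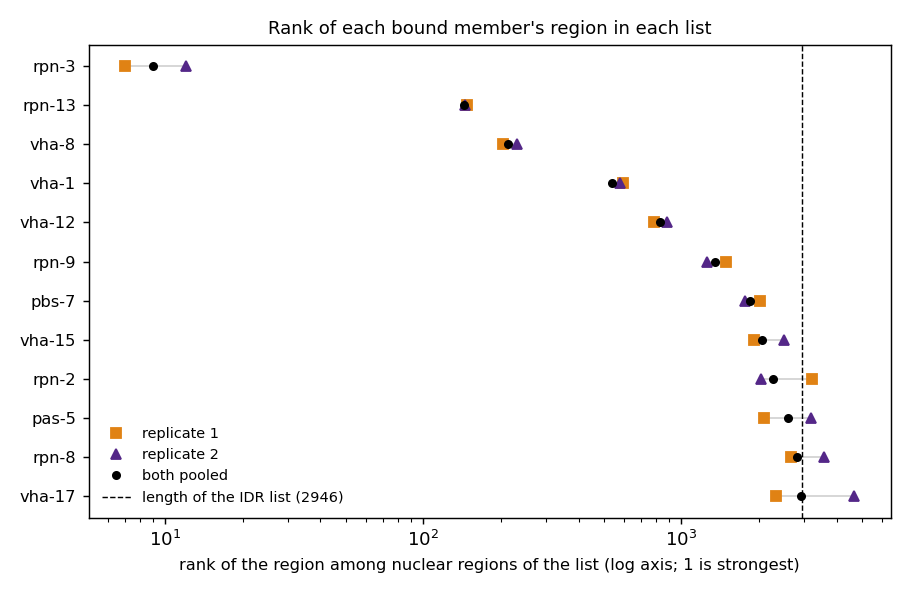
Rank of the region of each bound member (rows) in the list of replicate 1 (squares), replicate 2 (triangles) and both pooled (dots), on a log axis with rank 1 the strongest; the dashed line is the length of the IDR list, 2946. From rpn-3 down to vha-15 both replicates lie left of the line, and rpn-2, pas-5, rpn-8 and vha-17 each have 1 replicate right of it.

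Both replicates listed a summit within 65 bp of the pooled one for all 12 bound members. For 8 of the 12, both ranks were within 2946. For rpn-2, pas-5, rpn-8 and vha-17, 1 replicate ranked the region lower than that. Replicate 1 gave the better rank for 7 members and replicate 2 for 5. The IDR list was made from these same replicates, so high ranks in both are partly built in.

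The rule that makes a gene bound changed which members counted. With summits from 500 bp upstream to 100 bp downstream, 10 members were bound, without pas-5 and vha-17, and 6.73% of all genes. With summits from 3000 bp upstream to the gene end, 19 members were bound and 15.8% of all genes. The 7 gained were pbs-5, rpn-10, rpt-2, rpt-6, vha-2, vha-7 and vha-16. The summits of 5 of these, all but vha-7 and vha-16, were in the window of another gene, such as the histone variant gene his-72 for rpt-6 and picc-1 for rpt-2. That of vha-7 lay 2898 bp upstream and scored 525.4. Giving a summit to no gene but the nearest, up to 2000 bp away, left 9 members bound, without rpn-3, vha-8 and vha-17, and 9.62% of all genes. When a gene had to be the one nearest to a summit in its window, the same 9 members were bound and 7.27% of all genes. Any overlap of the region with the window gave the same 12 members and 10.1% of all genes, and the outermost 5' end alone gave the same 12 and 8.44%.

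The peak list mattered as well. Among the 1473 strongest regions, 6 members were bound, namely rpn-3, rpn-13, vha-8, vha-1, vha-12 and rpn-9, and 4.86% of all genes. The 2946 top regions of replicate 1 alone gave 14 members and 9.03% of all genes, and those of replicate 2 alone gave 11 members and 9.25%, with 11 and 9 of the 12 among them. Leaving out summits within 200 bp of transfer, small nucleolar and small nuclear RNA genes, a rule added after seeing the data, removed pas-5 alone, for 11 members and 8.72% of all genes.

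**Figure D4:**
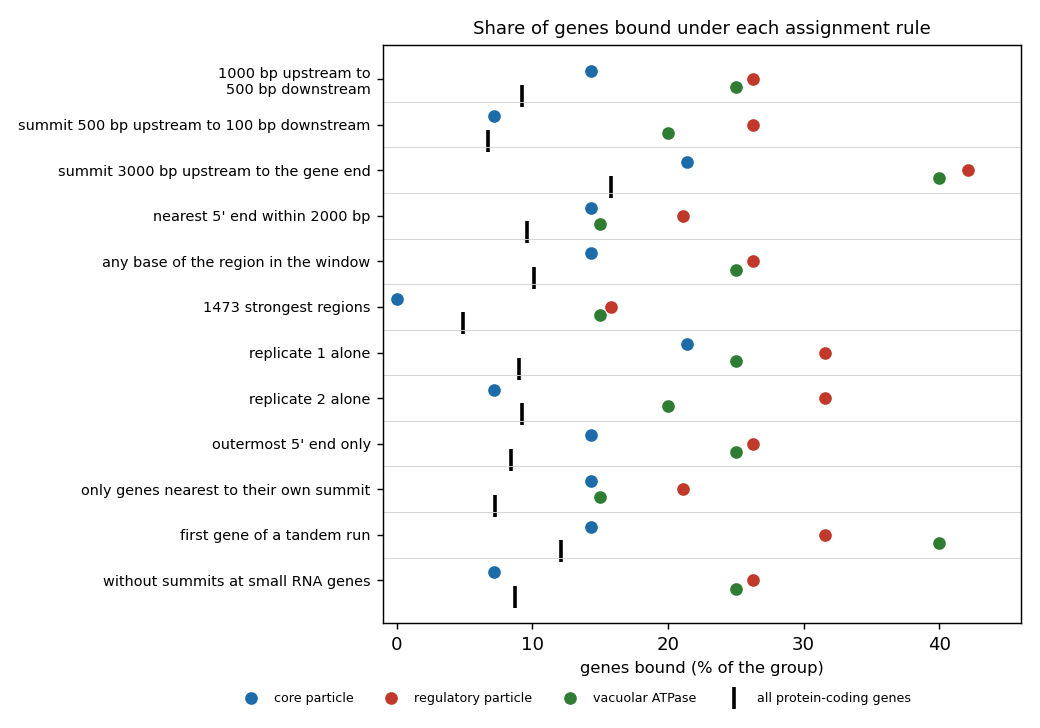
Share of genes bound (x axis, percent) under each assignment rule or peak list (rows) for the core particle (14 genes), the regulatory particle (19), the vacuolar ATPase (20) and, as black marks, all 19973 protein-coding genes. The regulatory particle and the vacuolar ATPase lie right of all genes in every row shown, and the core particle lies between 0% and 21.4%, left of all genes for the 1473 strongest regions, replicate 2 alone and the list without small RNA genes.

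Genes that work with the complexes were taken from 3 further lists, chosen with earlier results of these data known. Their counts are given under the main rule alone, and shared promoters are not given for them. Of 11 genes around the vacuolar ATPase and the lysosome 5 were bound, against 9.26% of all genes. The gene of the transcription factor HLH-30, the worm TFEB, which controls lysosomal genes, scored 565.4 at a summit 178 bp upstream, with ranks of 242 in replicate 1 and 443 in replicate 2. The rabconnectin genes rbc-2 and rbc-1, whose yeast and mammalian counterparts help assemble the pump, had scores of 498.7 and 335.7. Their summits lay 112 bp and 876 bp upstream. The lysosomal membrane gene lmp-1 scored 251.3 at a summit 914 bp upstream. The Rag GTPase gene ragc-1 scored 216.7 at 195 bp, with ranks of 3137 in replicate 1 and 1953 in replicate 2. The summits of rbc-1 and lmp-1 lie outside the shorter window of 500 bp upstream. Of 8 genes for ubiquitin and substrate unfolding 3 were bound, against the same 9.26%. The scores were 604.7 at the unfoldase gene cdc-48.1, 442.3 at the polyubiquitin gene ubq-1 and 203.1 at ubq-2. The ubq-1 summit lay 338 bp downstream of the 5' end. The ubq-2 region had ranks of 1774 in replicate 1 and 4720 in replicate 2, the latter beyond the length of the IDR list. The paralogue of cdc-48.1, cdc-48.2, was not bound and had a score of 133.5. Of 7 other proteasome genes 1 was bound, the deubiquitinase gene usp-14 with a score of 238. With 7 genes a count of 1 lies near the 9.26% of all genes. The gene of SKN-1, a transcription factor that raises proteasome genes in worms, was not bound and had a region with a score of 125.2, rank 4862.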

How the data were processed

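ChIP-seq of UNC-120-GFP was analysed from 4 deposited lists in ce11 coordinates: the optimal IDR list, the list pooled from both replicates, and 1 list per replicate. The lists in ce10 coordinates were not used, and the control experiment that the labels name as possible was not analysed here. Each region has a score that the authors deposited as the caller's strength, in column 7 of the narrowPeak layout, with an unstated scale. The aligner, the caller and the read depth were not given in the sources used here. Of 2951 IDR regions, 5 mitochondrial ones were left out.

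Summits were assigned to the 5' ends of all transcripts of protein-coding genes in the WBcel235 annotation (Ensembl release 115), from 1000 bp upstream to 500 bp downstream. A replicate's summit matched a pooled one within 200 bp. A divergent neighbour had its 5' end within 1000 bp. Sequences were searched within 100 bp of each strongest summit. Counts are set beside the same count over all genes, and no test was made. The assignment was tested on simulated data. Every member, every gene sharing a member's summit and the bound genes of the further lists could be named. Members and lists were chosen with earlier results of these data known. Alternatives covered the window, the peak list, single replicates and shared or tandem promoters. Python 3.11.15, numpy 2.4.6, pandas 2.3.3 and matplotlib 3.10.9 were used.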

Additional observations from a re-analysis of the deposited data

How the results depend on the processing

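Of 44 alternative counts of bound members, 31 stayed within 1.5 times the main count and 13 did not. The main counts were 12 members, 2 core, 5 regulatory particle and 5 vacuolar ATPase genes. With summits from 3000 bp upstream to the gene end, 19 members, 8 regulatory particle and 8 vacuolar ATPase genes were bound. Among the 1473 strongest regions the counts were 6 members, 0 core, 3 regulatory particle and 3 vacuolar ATPase genes, against 4.86% of all genes. The core count was 1 with the window of 500 bp upstream to 100 bp downstream and 1 without summits at small RNA genes. It ran from 1 to 3 over the lists of single replicates, where pas-5 was lost in replicate 2 alone and pas-7 gained in replicate 1 alone. The vacuolar ATPase count was 3 with the nearest 5' end and 3 with only genes nearest to their own summit, without vha-8 and vha-17, and 8 with tandem runs. These changes come with the genes that each rule or peak list adds or drops, as named in the report. The counts for the 1473 strongest regions and for single replicates keep the window and change the peak list. Why the replicates differ was not tested. Over single replicates the counts were 11 to 14 members, 6 for the regulatory particle in each, and 4 to 5 for the vacuolar ATPase. Of the sequence counts, CAGCTG was found at 1 member within 200 bp, and TGATAA at 0 within 50 bp and 3 within 200 bp. No paired analysis was possible because there was a single group. Unknown depth and 2 replicates limit what the scores near the threshold can show.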
